A study of Homo sapiens with 22 samples.

Results

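The maturation of the wild type cells in the H2A.X experiment was followed in 4 of the 22 RNA-Seq libraries of the series, 2 taken at D0 and 2 taken at D6. They are every library of the H2A.X experiment marked WT, and they were chosen with earlier results of these data known. The cells are HUDEP-2, an immortalized line of human erythroid progenitors. The series compared HUDEP-2 subclones with and without H2A.X, a histone variant, and, in a separate experiment, with and without BAZ1B, a kinase that phosphorylates it. At D0 the cells were in expansion medium holding SCF, EPO, dexamethasone and doxycycline. At D6 they had spent 6 days in maturation medium with plasma, heparin, holo-transferrin, insulin, SCF, EPO and doxycycline, and without dexamethasone. All libraries thus share the HUDEP-2 background and doxycycline, and the study describes its lines as subclones. The labels number the WT libraries 1 and 2 at each day but do not say which subclone, if any, a number marks, so the spread between replicates may be partly technical. For comparison, the 6 H2A.X KO libraries (3 a day) and the 6 WT libraries of the BAZ1B experiment (3 a day) were used, at the same days and in the media given above. The BAZ1B KO libraries entered the scaling, the spread estimated in the BAZ1B experiment and statements over all libraries.

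Terminal erythroid maturation is the passage from a dividing progenitor to a cell filled with hemoglobin. GATA1 and KLF1 turn on the globin genes, the enzymes of heme synthesis, iron uptake and the red cell membrane skeleton, while genes of the progenitor such as KIT, GATA2 and MYB are turned down. The cells then leave the cell cycle, the nucleus condenses, and it is expelled. HUDEP-2 cells are kept as dividing progenitors in expansion medium, which holds the glucocorticoid dexamethasone, and mature after a change of medium.

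Levels are given as CPM (read counts scaled to a common library size) after trimmed-mean scaling over all 22 libraries, and they are compared between libraries, not between genes. Total counts were 16171864 and 15679680 in the D0 libraries and 16151938 and 11910141 in the D6 libraries. These limit precision for genes with few reads, where counting error adds to the spread between replicates. H2AFX, the gene of H2A.X, stood at 89.5 and 110.2 CPM at D0 and 97.1 and 129 CPM at D6, against means of 36.3 and 41.4 CPM in the KO libraries at D0 and D6. Erythroid markers were detected in full: all 8 had reads, and their summed level was 21650 to 28110 CPM at D0 and 32610 to 51440 CPM at D6. The 4 libraries stand apart from the others. Their total counts were below, and their shares of ribosomal protein RNA and of RNAs without a poly(A) tail above, those of all 18 other libraries, which had at least 17594193 counts, 7.19 to 10.3% and 0.00582 to 0.0136%. Across 7227 genes, the Spearman rho of a gene's level relative to the mean of all libraries with its transcript length was -0.65 to -0.56 in the 4 libraries, 0.22 to 0.31 in 5 of the 6 KO libraries, -0.18 in the remaining KO library and 0.19 to 0.29 in the BAZ1B WT libraries. Of the 10 count columns of the H2A.X experiment, the 5 KO columns with a positive value carry the mark Redo, and no WT column does. Differences of the 4 libraries from KO or from BAZ1B WT therefore cannot be told apart from differences in library making, and a correction for length and GC content is given beside them.

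**Figure D1:**
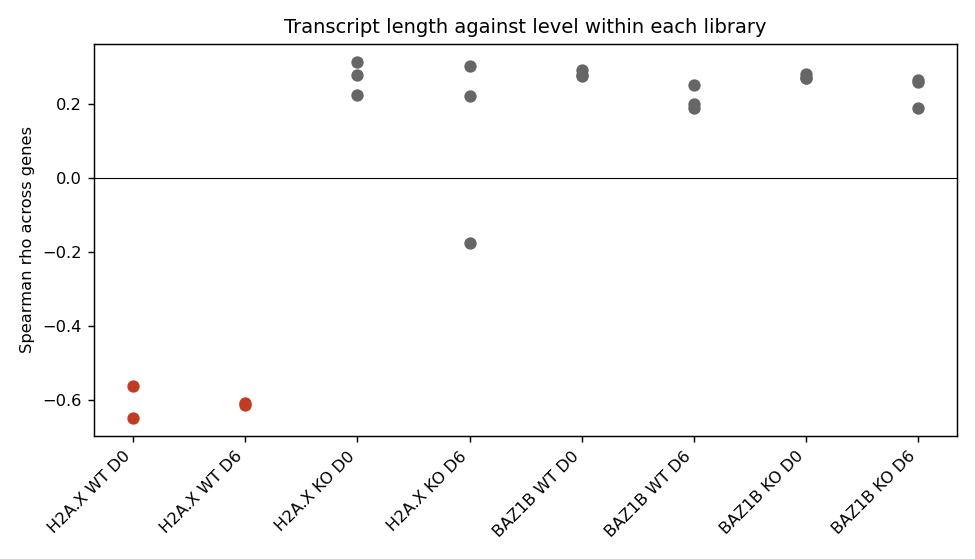
Spearman rho, across 7227 genes, between transcript length and the level of each gene relative to its mean over all libraries, for each library (points) by group. The H2A.X-experiment WT libraries (red) lie between -0.65 and -0.56, below every other library.

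From D0 to D6, 111 genes rose and 154 fell in the WT cells, 2% of the 13236 genes tested (0.839% higher and 1.16% lower, edgeR quasi-likelihood test, Benjamini-Hochberg adjusted p below 0.05). At an unadjusted p below 0.05 there were 2796. Same-numbered libraries deviated together, though the labels do not say that a number links the days. With that pairing assumed in the fit, the counts were 583 higher and 544 lower (8.51% of genes), among them all 265 of the unpaired fit. The smallest adjusted p was 0.00121 without the pairing. A correction for length and GC gave 165 higher (1.25%) and 212 lower (1.6%). Both D6 libraries lay above both D0 libraries for 25.2% of genes and below them for 26.1%. The same genes were tested in the KO cells, where 1957 rose and 2137 fell (30.9%, with 14.8% higher and 16.1% lower), and in the WT cells of the BAZ1B experiment 4654 rose and 4911 fell of 13879 tested (68.9%, with 33.5% higher and 35.4% lower). These shares also depend on power, which differed. WT had 2 libraries a day, and KO and BAZ1B WT had 3. The spread between replicates (biological coefficient of variation) was 0.239 in the H2A.X fit and 0.0865 in the BAZ1B fit. The median absolute log2 fold change, which does not depend on a threshold but takes in noise, was 0.34 in the WT cells, 0.44 in KO and 0.47 in BAZ1B WT. The count rested on both D0 libraries and on the second D6 library: without any 1 of these 3, 1 gene was called, EPAS1, and without the first D6 library 184 were called. A single library left on a side is assumed there to vary like the other groups. Of the 265 genes, 199 were also called in the same direction in KO and 8 in the opposite direction, and of the 256 tested in BAZ1B WT, 221 were called in the same and 14 in the opposite direction.

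**Figure D2:**
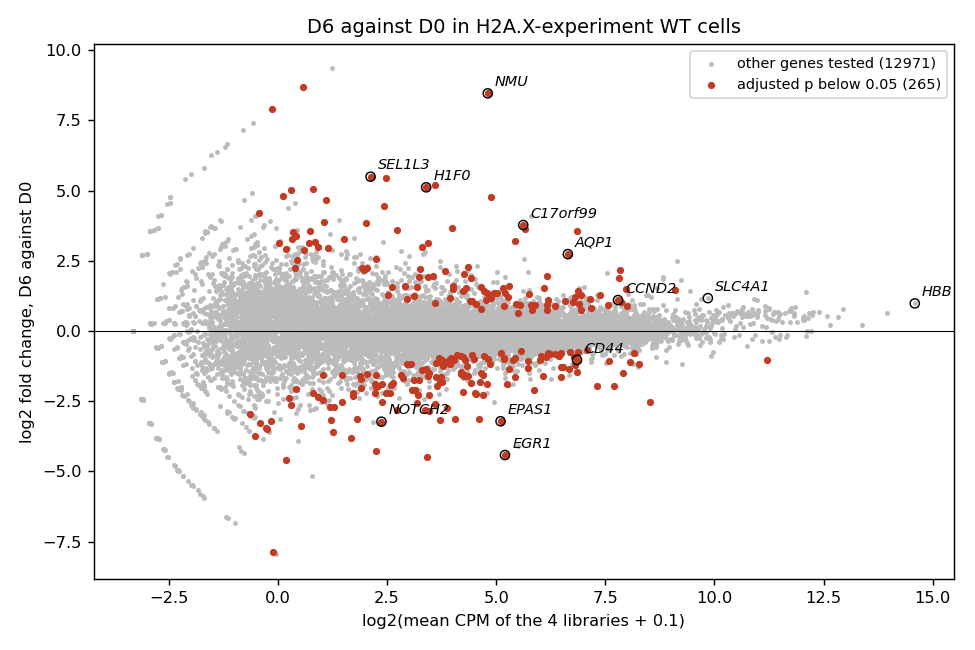
Log2 fold change from D0 to D6 in the H2A.X-experiment WT cells (y axis) against the log2 of the mean CPM of the 4 libraries plus 0.1 (x axis), 1 point a gene. The 265 genes with an adjusted p below 0.05 are red, and circles mark named genes, among them HBB and SLC4A1, which did not pass.

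Among the genes that rose furthest, several were almost silent at D0. The genes of this and the next paragraph were named only if called and with days that did not overlap. Their separation of days is thus a condition of the choice. NMU, the gene of the neuropeptide neuromedin U, had 2 and 3 reads at D0 and 863 and 584 reads at D6, a ratio of 368 after scaling (95% counting interval 157 to 1140, adjusted p = 0.0274). H1F0, a linker histone of cells that stop dividing, stood at 0.402 and 0.803 CPM at D0 and 14.8 and 25.7 CPM at D6 (log2 fold change 5.12 ± 0.74, adjusted p = 0.0189). C17orf99, which encodes a small secreted protein, stood at 5.57 and 8.17 CPM at D0 and 72.7 and 109.6 CPM at D6 (log2 fold change 3.78 ± 0.73, adjusted p = 0.0364). For these 3 genes both D6 libraries lay far above both D0 libraries, and the day change was in the same direction in KO (adjusted p = 0.000789, 9.26e-05 and 0.00024). SEL1L3 stood at 0.287 and 0.0669 CPM at D0 and 11.2 and 5.41 CPM at D6 (log2 fold change 5.50 ± 0.95, adjusted p = 0.0282) and IGFL2, of the insulin growth factor-like family, at 0.402 and 0.536 CPM at D0 and 13.9 and 6.47 CPM at D6 (log2 fold change 4.47 ± 0.72, adjusted p = 0.0263). In KO the day change of IGFL2 was opposite (-4.96 ± 0.77, adjusted p = 0.0013). ANXA1, the phospholipid-binding annexin A1, stood at 2.18 and 2.48 CPM at D0 and 42.5 and 15.9 CPM at D6 (log2 fold change 3.69 ± 0.59, adjusted p = 0.0263). CST7, the protease inhibitor cystatin F, stood at 0.575 and 0.469 CPM at D0 and 10.5 and 4.25 CPM at D6 (log2 fold change 3.85 ± 0.55, adjusted p = 0.0177). The D6 values of both genes differed widely between the replicates. RNU4-2 and RNU4-1, near-identical copies of the U4 spliceosomal RNA whose reads may be split arbitrarily, stood at 0.287 and 0.201 CPM at D0 and 2.28 and 18.9 CPM at D6 and at 0.632 and 0.669 CPM at D0 and 3.997 and 42.95 CPM at D6 (adjusted p = 0.0318 and 0.0376). SNORD3A, the U3 nucleolar RNA, stood at 1.21 and 3.15 CPM at D0 and 13.6 and 99.3 CPM at D6 (adjusted p = 0.0352). These RNAs carry no poly(A) tail, and their high D6 values came mainly from the second replicate, in which RNAs without a tail made up 0.09% of counts at D6, against 0.027% in the first replicate at D6 and 0.014 to 0.016% at D0.

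The genes that fell furthest included several transcription factors. EPAS1, a hypoxia-inducible transcription factor, stood at 70.2 and 53.6 CPM at D0 and 7.74 and 5.12 CPM at D6 (log2 fold change -3.21 ± 0.24, adjusted p = 0.00121), the only gene of the 265 called under each of the 12 alternatives that kept the same threshold. EGR1, an immediate early transcription factor, stood at 71.7 and 68.6 CPM at D0 and 3.68 and 2.61 CPM at D6 (log2 fold change -4.42 ± 0.63, adjusted p = 0.0177). FOSB, a partner of JUN proteins, stood at 47.3 and 39.97 CPM at D0 and 2.22 and 7.72 CPM at D6 (log2 fold change -3.12 ± 0.52, adjusted p = 0.0268). In all 3 the D6 libraries lay far below the D0 libraries. FOSB was near 0 at both days in BAZ1B WT (means of 0.370 and 0.294 CPM, adjusted p = 0.431). In KO it fell from a mean of 13.8 to 0.396 CPM (adjusted p = 0.000177). CBFB, the shared partner of the RUNX factors, stood at 22.9 and 24.2 CPM at D0 and 3.62 and 1.35 CPM at D6 (log2 fold change -3.15 ± 0.55, adjusted p = 0.0282). NOTCH2, a receptor of cell-cell signalling, stood at 12.1 and 6.36 CPM at D0 and 1.40 and 0.386 CPM at D6 (log2 fold change -3.23 ± 0.50, adjusted p = 0.0259). ELOVL2, an elongase of polyunsaturated fatty acids, stood at 32.5 and 26.98 CPM at D0 and 3.68 and 2.80 CPM at D6 (log2 fold change -3.14 ± 0.56, adjusted p = 0.0303). None of these genes had overlapping days, as the naming rule required. HSPA12B, a heat shock protein relative, stood at 7.70 and 10.04 CPM at D0 and 0.634 and 0.193 CPM at D6 (adjusted p = 0.0108), and CARMIL1, a regulator of actin capping, at 5.40 and 6.16 CPM at D0 and 0.634 and 0.0965 CPM at D6 (adjusted p = 0.0412). LZTS3 stood at 8.04 and 4.22 CPM at D0 and 0.825 and 0.483 CPM at D6 (adjusted p = 0.0383). AC026403.1 stood at 14.6 and 25.8 CPM at D0 and 0.634 and 1.16 CPM at D6 (log2 fold change -4.48 ± 0.53, adjusted p = 0.0108). It rose in BAZ1B WT (log2 fold change 0.87, adjusted p = 0.00158) and was not called in KO (adjusted p = 0.579). Its KO means were 0.211 and 0.291 CPM and its BAZ1B WT means 11.4 and 20.8 CPM at D0 and D6.

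The stretches of 250 bases before the annotated start of these genes were searched on both strands for AGATAA and TGATAA, letters bound by GATA factors, CCACACCC, bound by KLF1, and AGAACA, letters bound by the glucocorticoid receptor. RefSeq sequences (GRCh38.p14) matched 5 of the 10 risers and 6 of the 10 fallers by symbol. AGATAA was found in 1 of the 5 and 0 of the 6, against 9.17% of all 35116 promoters, and TGATAA in 0 and 0, against 6.66%. CCACACCC was found in 0 and 1, against 2.97%, and AGAACA in 0 and 1, against 12.4%. The 3 stretches with a match are shown 5′ to 3′ on the gene's strand, with the match, or its reverse complement, in capitals, as the only gene starts here that hold a searched motif. They lie at chr17:78146135-78146384 (plus strand, C17orf99), chr6:11044306-11044555 (minus strand, ELOVL2) and chr19:45467746-45467995 (plus strand, FOSB).
C17orf99: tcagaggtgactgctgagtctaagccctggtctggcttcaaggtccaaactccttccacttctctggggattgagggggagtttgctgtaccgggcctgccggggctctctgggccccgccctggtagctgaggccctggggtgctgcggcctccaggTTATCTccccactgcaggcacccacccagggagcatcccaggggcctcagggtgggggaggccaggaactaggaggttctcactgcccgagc
ELOVL2: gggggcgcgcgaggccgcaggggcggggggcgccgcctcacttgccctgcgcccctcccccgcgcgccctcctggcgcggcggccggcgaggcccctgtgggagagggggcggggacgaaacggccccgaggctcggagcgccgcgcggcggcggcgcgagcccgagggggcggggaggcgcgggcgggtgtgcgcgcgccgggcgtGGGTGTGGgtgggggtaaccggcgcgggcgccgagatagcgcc
FOSB: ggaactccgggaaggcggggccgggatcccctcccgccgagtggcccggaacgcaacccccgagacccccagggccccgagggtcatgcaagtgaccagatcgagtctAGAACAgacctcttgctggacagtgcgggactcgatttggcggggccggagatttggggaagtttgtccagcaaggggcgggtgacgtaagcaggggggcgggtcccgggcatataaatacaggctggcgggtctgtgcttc

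The globin genes, which encode the hemoglobin chains, were all higher at D6 in the point estimates, and none passed the test: 0 of 10 tested members were called, with a median log2 fold change of 1.13, against 0.01 over all genes. With the pairing 8 of 10 passed as higher, where 4.4% of all genes did. HBB, the adult beta globin, stood at 13370 and 20430 CPM at D0 and 23540 and 41220 CPM at D6 (adjusted p = 0.16 and 0.0112 without and with the pairing), a log2 difference of 0.98 ± 0.36. The days did not overlap, so each D6 library was also above the same-numbered D0 library. HBD, the minor adult delta globin, chosen after its values were seen, stood at 126 and 222 CPM at D0 and 542 and 1357 CPM at D6 (adjusted p = 0.0844, with the pairing 0.0083). HBA2 and HBA1, the near-identical alpha globin copies between which reads may be split arbitrarily, stood at 874 and 1724 CPM at D0 and 1597 and 3796 CPM at D6 and at 877 and 1540 CPM at D0 and 1625 and 3573 CPM at D6 (with the pairing adjusted p = 0.0188 and 0.0155). HBG2, a fetal gamma globin nearly identical to HBG1, also chosen afterwards, stood at 9.25 and 20.6 CPM at D0 and 39.8 and 129.8 CPM at D6 (with the pairing adjusted p = 0.0276). AHSP, the chaperone of free alpha globin, stood at 820.2 and 1553 CPM at D0 and 1455 and 2526 CPM at D6 (with the pairing adjusted p = 0.0159). Globin genes together took 1.66 and 2.3% of all counts at D0 and 2.7 and 4.41% at D6. In KO the list's median was 2.87, with 7 of 10 called higher, and in BAZ1B WT it was 3.61, with 10 of 10 called higher. Over all genes 14.8% were called higher in KO and 33.5% in BAZ1B WT, the shares to compare with for the lists below too. With correction for length and GC the median in the WT cells was 0.715, and 0 members were called.

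The 8 enzymes of heme synthesis had a median log2 fold change of 0.52, with 0 called. With the pairing 3 were called higher, where 4.4% of all genes were, and none lower. ALAS2, the rate-limiting enzyme of erythroid heme synthesis, stood at 1081 and 1175 CPM at D0 and 1571 and 1985 CPM at D6 (log2 fold change 0.70 ± 0.30, adjusted p = 0.224). FECH, which inserts iron into the ring, stood at 714 and 743 CPM at D0 and 805 and 761 CPM at D6 (log2 fold change 0.15 ± 0.32, adjusted p = 0.84). The days did not overlap for either gene. UROD, which removes carboxyl groups from uroporphyrinogen, stood at 682 and 962 CPM at D0 and 891 and 1124 CPM at D6 (adjusted p = 0.442). In KO and in BAZ1B WT all 8 were called higher, with medians of 1.65 and 1.76.

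Iron and heme transport showed 0 of 16 members called, a median of 0.36 and 4 called higher with the pairing (4.4% of all genes). TFRC, the transferrin receptor that brings iron into the cell, stood at 5221 and 4414 CPM at D0 and 4717 and 4599 CPM at D6 (log2 fold change -0.01 ± 0.24, adjusted p = 0.998), with overlapping days. In KO it stood at 4231, 5093 and 6011 CPM at D0 and 9729, 13340 and 14460 CPM at D6. SLC25A37, the mitochondrial iron importer, which was chosen after its values were seen, stood at 1884 and 1137 CPM at D0 and 1799 and 2398 CPM at D6 (log2 fold change 0.52 ± 0.33, adjusted p = 0.397). FTH1 and FTL, both ferritin chains, stood at 2558 and 4479 CPM at D0 and 4064 and 5581 CPM at D6 and at 2948 and 4319 CPM at D0 and 4013 and 5348 CPM at D6 (adjusted p = 0.401 and 0.522). BLVRB, a reductase of heme breakdown products, stood at 1096 and 1683 CPM at D0 and 1798 and 2818 CPM at D6 (adjusted p = 0.172, with the pairing 0.013). The day medians in KO and BAZ1B WT were 1.17 and 1.21, with 12 and 14 of 16 called higher.

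The red cell membrane list had the smallest median of the 6 erythroid lists. Its median in the WT cells was 0.19, with 0 of 20 called, and 2 called higher with the pairing (4.4% of all genes). SLC4A1, the anion exchanger of the red cell membrane, stood at 646 and 514 CPM at D0 and 1056 and 1471 CPM at D6 (log2 fold change 1.17 ± 0.93, adjusted p = 0.512). The days did not overlap. The comparison groups went from 88.6 ± 85.3 to 3909 ± 2694 CPM (SD, n = 3) in KO and from 32.1 ± 1.65 to 3637 ± 458 CPM in BAZ1B WT. At D6 both WT levels lay below every BAZ1B WT library, and 1 of them below every KO library. GYPC, the glycophorin that anchors the skeleton, stood at 479 and 645 CPM at D0 and 747 and 1081 CPM at D6 (adjusted p = 0.185, with the pairing 0.0433). RHAG, the Rh-associated glycoprotein, stood at 792 and 684 CPM at D0 and 702 and 752 CPM at D6 (adjusted p = 0.979), and ADD2, the adducin that caps actin in the skeleton, at 741 and 706 CPM at D0 and 754 and 788 CPM at D6 (adjusted p = 0.651). The days overlapped for RHAG but not for ADD2. EPB42, chosen after its values were seen, had overlapping days at 199 and 158 CPM at D0 and 156 and 183 CPM at D6. In KO 19 of 20 and in BAZ1B WT 20 of 20 were called higher, with medians of 1.43 and 1.65.

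Of 27 tested late erythroid genes, 2 rose and none fell (0.839% and 1.16% of all genes did), with a median of 0.43. With the pairing 3 were called higher and 1, BNIP3L, lower, where 4.4% and 4.11% of all genes were. AQP1, the water channel, rose from 24.2 and 29.1 CPM to 151 and 194 CPM (log2 fold change 2.74 ± 0.38, adjusted p = 0.0177). STRADB, a pseudokinase, rose from 53.7 and 61.7 CPM to 98.7 and 111 CPM (log2 fold change 0.90 ± 0.18, adjusted p = 0.0415). Other members, named after their values were seen, did not pass: CA1, a carbonic anhydrase, stood at 12790 and 12510 CPM at D0 and 18500 and 19780 CPM at D6 (adjusted p = 0.22), and TRIM10, a ubiquitin ligase family member, at 12.9 and 10.7 CPM at D0 and 20.3 and 36.2 CPM at D6 (adjusted p = 0.54). BNIP3L, the receptor for removal of mitochondria, stood at 796 and 909.7 CPM at D0 and 404 and 324 CPM at D6 (adjusted p = 0.0575, with the pairing 0.0184). In KO 20 members were called higher and none lower (median 1.62), and in BAZ1B WT 25 higher and 1 lower (median 1.56).

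The erythroid transcription factors and EPO signalling genes had a median of 0.4, with 0 of 17 called. With the pairing 1 was called higher (4.4% of all genes were). For 13 of 17 both D6 libraries lay above both D0 libraries, where this held for 25.2% of all genes. KLF1 stood at 717 and 857 CPM at D0 and 884 and 1132 CPM at D6 (adjusted p = 0.326), and GFI1B, a repressor needed for red cell development, at 398 and 401 CPM at D0 and 484 and 499 CPM at D6 (adjusted p = 0.194). NFE2, an activator of globin genes, stood at 247 and 329.6 CPM at D0 and 403 and 572 CPM at D6 (adjusted p = 0.137, with the pairing 0.0244). LMO2, the bridge of the GATA1 complex, stood at 331 and 392 CPM at D0 and 357 and 398 CPM at D6 (adjusted p = 0.866).

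Early progenitor genes gave 1 gene higher and 1 lower of 10 tested (0.839% and 1.16% of all genes), with a median of -0.43. CD44, the adhesion receptor lost during red cell maturation, fell from 157 and 155 to 79.2 and 69.5 CPM (log2 fold change -1.03 ± 0.14, adjusted p = 0.0177), while LYL1, a transcription factor of the TAL1 family, rose from 159.6 and 203 to 287 and 367 CPM (log2 fold change 0.90 ± 0.18, adjusted p = 0.04). KIT, the receptor of SCF, GATA2 and MYB are given here after their values were seen. KIT stood at 280.5 and 192 CPM at D0 and 184 and 107 CPM at D6 (log2 fold change -0.66 ± 0.42, adjusted p = 0.404), GATA2 at 69.99 and 60.99 CPM at D0 and 92.1 and 48.6 CPM at D6 (log2 fold change 0.14 ± 0.33, adjusted p = 0.849) and MYB at 177 and 164 CPM at D0 and 193 and 101 CPM at D6 (log2 fold change -0.17 ± 0.32, adjusted p = 0.808). In the first replicate GATA2 and MYB were higher at D6 than at D0, and in the second they were lower. At D0 the WT levels of all 3 were below those of every KO library, where KIT was 570.1, 626 and 1044, GATA2 215, 229 and 229.9 and MYB 311, 334 and 438 CPM.

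**Figure D3:**
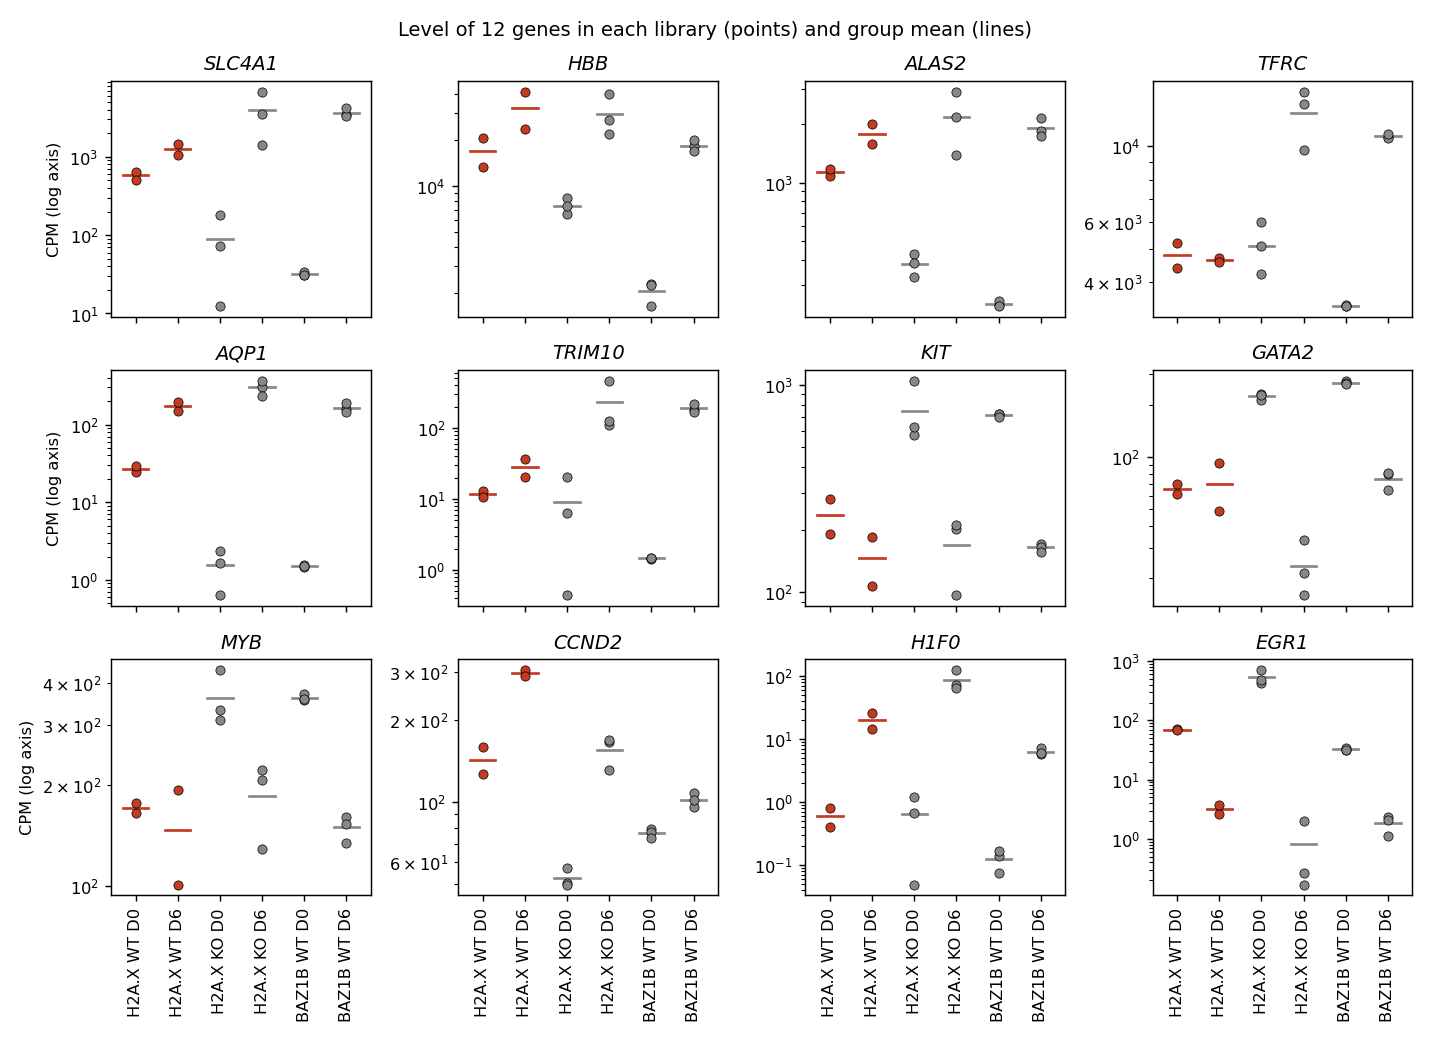
CPM on a log axis of 12 genes in each library (points) with group means (lines), H2A.X-experiment WT in red. For SLC4A1, HBB, ALAS2 and AQP1 the red D0 points lie between the D0 and D6 points of the other groups or close to their D6 points, and for KIT, GATA2 and MYB they lie below the other D0 points.

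For the cell cycle lists, the shares to compare with are 0.839% higher and 1.16% lower over all genes. With the pairing they are 4.4% and 4.11%. For DNA replication 0 of 19 members were called (median -0.11, 1 higher with the pairing), and for mitosis 0 of 17 (median 0.33, 0 with the pairing). MCM7, a subunit of the replicative helicase, stood at 636 and 688 CPM at D0 and 724 and 726 CPM at D6 (adjusted p = 0.515), and TYMS, which makes thymidylate, at 631 and 830.2 CPM at D0 and 597 and 527 CPM at D6 (adjusted p = 0.437). PCNA, the sliding clamp, stood at 567 and 776 CPM at D0 and 626 and 591 CPM at D6 (adjusted p = 0.803). CCNB1, the mitotic cyclin B, stood at 275 and 331 CPM at D0 and 345 and 449.6 CPM at D6 (adjusted p = 0.257), and CDC20, which activates its destruction, at 292 and 358 CPM at D0 and 349 and 538 CPM at D6 (adjusted p = 0.286). None of these 5 genes passed. Among G1 cyclins, CDKs and inhibitors, 2 of 17 rose and none fell (median 0.345, or 0.303 with members of few reads set against a floor of 3 reads). CCND2, a D-type cyclin, stood at 127 and 159 CPM at D0 and 306 and 292 CPM at D6 (log2 fold change 1.10 ± 0.18, adjusted p = 0.0263). CCNE1, the cyclin E of S phase entry, stood at 64.9 and 81 CPM at D0 and 165 and 179 CPM at D6 (log2 fold change 1.28 ± 0.26, adjusted p = 0.0397). CDKN1B, an inhibitor of cyclin-dependent kinases, which was chosen after its values were seen, stood at 46.8 and 45.5 CPM at D0 and 74.3 and 83.8 CPM at D6 (adjusted p = 0.0827, with the pairing 0.0431). UBE2C, NUSAP1 and CDK6, named after their values were seen, had under 1 CPM in each of the 4 libraries.

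Ribosome biogenesis had 0 of 23 called and a median of -0.19. NCL, the nucleolar protein nucleolin, stood at 1959 and 2152 CPM at D0 and 1521 and 1268 CPM at D6 (adjusted p = 0.18), and NOP56, a core protein of snoRNA particles, at 445 and 502 CPM at D0 and 322 and 329 CPM at D6 (adjusted p = 0.221). Ribosomal protein genes took 10.8 and 15.4% of counts at D0 and 15.8 and 19.7% at D6. In the glucocorticoid response list, 1 gene, ANXA1, rose and 1 fell of 15 tested (median 0.14), where 0.839% and 1.16% of all genes did. The gene that fell was CEBPD, a transcription factor, with 2.82 and 5.22 CPM at D0 and 0.444 and 0.772 CPM at D6 (log2 fold change -2.70 ± 0.57, adjusted p = 0.0446). FKBP5, a chaperone partner of the glucocorticoid receptor, which was chosen after its values were seen, stood at 1011 and 864 CPM at D0 and 932 and 783 CPM at D6 (adjusted p = 0.862). TSC22D3, the glucocorticoid-induced leucine zipper, also chosen afterwards, stood at 199 and 262 CPM at D0 and 405 and 631 CPM at D6 (adjusted p = 0.0827, with the pairing 0.0276).

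Cholesterol and fatty acid synthesis had a median of -0.515 (0 of 19 called, 3 lower with the pairing, where 4.11% of all genes were lower). SQLE, the squalene epoxidase, stood at 569 and 616 CPM at D0 and 399 and 322 CPM at D6 (adjusted p = 0.0612, with the pairing 0.0338), and HMGCS1, which makes hydroxymethylglutaryl-CoA, at 1300 and 1253 CPM at D0 and 976 and 498 CPM at D6 (adjusted p = 0.386). The ATF4 stress response had the highest median of the 15 lists, 1.29. Of its 13 tested members 0 were called, and 3 were called higher with the pairing, where 4.4% of all genes were. For 11 of 13 both D6 libraries lay above both D0 libraries, where this held for 25.2% of all genes. ATF4, the transcription factor of amino acid stress, stood at 395 and 469 CPM at D0 and 504 and 757 CPM at D6 (adjusted p = 0.185). PSAT1, an enzyme of serine synthesis, stood at 67 and 78.7 CPM at D0 and 318 and 281 CPM at D6 (log2 fold change 2.08 ± 0.47, adjusted p = 0.0562, with the pairing 0.0199). SHMT2, the mitochondrial serine hydroxymethyltransferase, stood at 149.7 and 162 CPM at D0 and 224 and 197 CPM at D6 (adjusted p = 0.266). The genes of nuclear condensation, including H2AFX and BAZ1B themselves, had 0 of 16 called and a median of -0.12. LMNA, the lamin A of the nuclear envelope, stood at 691 and 848 CPM at D0 and 678 and 729.9 CPM at D6, and LBR, the lamin B receptor, at 289 and 282 CPM at D0 and 279.5 and 274 CPM at D6 (adjusted p = 0.845 and 0.999).

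How advanced the cells were at D0 was described with a score from the other experiment. The score is the mean log2 CPM of 1340 genes that rose from D0 to D6 in BAZ1B WT minus that of 1965 genes that fell there, each with an absolute log2 change above 1. In the BAZ1B WT libraries, which chose these genes, the score was -1.15 to -1.13 at D0 and 2.59 to 2.78 at D6. The H2A.X-experiment WT libraries stood at 1.02 and 1.13 at D0 and at 2.11 and 2.68 at D6. Their D0 score was 58.35% and their D6 score 93.1% of the way from D0 to D6 in BAZ1B WT. The KO libraries of the same experiment stood at -0.71 to -0.23 at D0 and 2.49 to 3.46 at D6, which is 19.47% and 104.8% of that way. Every WT D0 library was thus above every other D0 library of the series, and the score rose by 1.09 and 1.55 between same-numbered WT libraries, against means of 3.24 in KO and 3.8 in BAZ1B WT. With correction for length and GC the WT scores were 0.97 and 1.03 at D0 and 2.04 and 2.575 at D6. Of the risers, 1231 were tested in the H2A.X experiment, where 61 were called higher and 1 lower in WT, with a median log2 fold change of 0.71 (0.697 with genes of few reads set against a floor of 3 reads). Of the fallers, 1619 were tested, where 6 were called higher and 100 lower, with a median of -0.65 (-0.597 with that floor). Over all genes tested, 0.839% were called higher and 1.16% lower in WT. The KO medians of the riser and faller lists were 1.3 and -1.63.

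**Figure D4:**
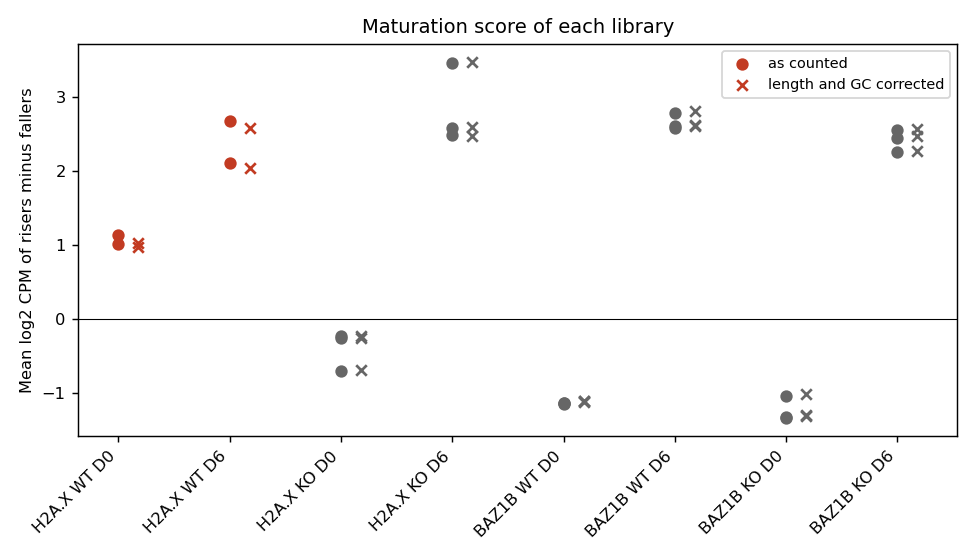
Maturation score (mean log2 CPM of genes that rose minus genes that fell in BAZ1B WT) of each library, by group, as counted (circles) and after correction for length and GC (crosses). The H2A.X-experiment WT libraries (red) stand at 1.02 and 1.13 at D0, above all other D0 libraries, and at 2.11 and 2.68 at D6.

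D0 levels were then compared gene by gene with those of BAZ1B WT at D0, a comparison of 2 experiments in which experiment, library making and cells cannot be told apart. Of 14477 genes tested 9219 differed (63.7%, 30.5% higher and 33.2% lower in the H2A.X experiment), and 7165 in a limma-voom fit with quality weights by experiment (49.5%, with 24.1% higher and 25.4% lower). Correction for length and GC left 61.8% called, 29.7% higher and 32.1% lower. The difference was related to transcript length (Spearman rho -0.575 across 7227 genes). Upper-quartile scaling moved the median of all genes by 0.17 on the log2 scale. All 8 heme enzymes were higher (median log2 difference 1.46), as were 9 of 10 globin list members (median 2.67), 8 of 8 erythroid markers (median 1.68), 12 of 16 iron genes and 16 of 20 membrane genes, with 2 iron and 3 membrane genes lower. After correction for length and GC the counts higher were 8, 8, 8, 12 and 17, and no membrane gene was lower. The corrected medians were 1.42 for heme enzymes, 1.68 for globin list members and 1.44 for erythroid markers. Of 27 late erythroid genes 15 were higher and 5 lower (median 0.72), and 17 and 5 after correction. Of 17 erythroid transcription factor and EPO signalling genes 9 were higher and 5 lower (median 0.25), and 10 and 2 after correction. SLC4A1 differed by 4.18 ± 0.17 (log2 ± SE, adjusted p = 4.98e-08), with 646 and 514 CPM against 31, 31.4 and 34.03 CPM. AQP1 differed by 4.13 ± 0.17 (adjusted p = 5.5e-08), with BAZ1B WT at 1.49, 1.53 and 1.56 CPM, and ALAS2 by 2.25 ± 0.13 (adjusted p = 3.16e-07), with BAZ1B WT at 232, 235 and 248 CPM. KIT, GATA2 and MYB were lower, with differences of -1.59 ± 0.21, -2.03 ± 0.22 and -1.08 ± 0.21 (adjusted p = 8.49e-05, 2.21e-05 and 0.001). Of the early progenitor list 7 of 11 were lower and 1 higher. A large gap was seen for CDK6, a G1 kinase chosen after its values were seen, with 0.0575 and 0.0669 CPM at D0 and 0.254 and 0.0965 CPM at D6 against 176, 181 and 189 CPM in BAZ1B WT at D0 and KO means of 2.02 and 6.08 CPM.

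The day change itself was then compared with that of BAZ1B WT. It differed for 3257 of 14477 genes (22.5%), 1445 more positive (9.98%) and 1812 more negative (12.5%) in the H2A.X-experiment WT cells. A voom fit called 1599 (11%, with 4.48% more positive and 6.57% more negative), of which 1585 were shared, and correction for length and GC turned the split to 2117 more positive (14.6%) and 1756 more negative (12.1%), or 26.8% in all. The day change was more negative for all 20 membrane genes (median difference -1.45), 7 of 8 heme enzymes (-1.49), 6 of 10 globin list members (-2.04), 25 of 27 late erythroid genes (-1.15) and 13 of 19 DNA replication genes (-0.58). Members with a more positive change were 1 late erythroid gene and none in the other 4 lists. SLC4A1 differed by -5.70 ± 0.25 (adjusted p = 1.16e-06, voom 1.24e-08) and TFRC by -1.70 ± 0.15 (adjusted p = 3.38e-05). The naming rule gave SMOX, TRIM10, LRP1, SMAD6 and ANKH as the 5 most negative differences. SMOX, a spermine oxidase, stood at 0.632 and 0.870 CPM at D0 and 2.85 and 7.14 CPM at D6 in WT and at 0, 0 and 0 and 8.15, 8.64 and 10.9 CPM in BAZ1B WT at D0 and D6 (adjusted p = 0.00187). TRIM10 stood at 1.44, 1.47 and 1.48 and 169, 177 and 221 CPM in BAZ1B WT (difference -5.78 ± 0.33, adjusted p = 2.26e-06). LRP1, an endocytic receptor, stood at 1.55 and 0.736 CPM at D0 and 1.21 and 0.386 CPM at D6 against BAZ1B WT means of 0.620 and 44.7 CPM, and ANKH, a pyrophosphate exporter, at 0.977 and 0.736 CPM at D0 and 1.21 and 1.64 CPM at D6 against 0.284 and 25 CPM. SMAD6, an inhibitor of BMP signalling, had at most 4 reads in any of the 4 libraries. For LRP1 the days overlapped in WT.

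The most positive differences from BAZ1B WT were in genes that fell there and were near 0 at both days in the H2A.X-experiment WT cells. MYO1F, an unconventional myosin, stood at 0.287 and 0.469 CPM at D0 and 0.317 and 0.579 CPM at D6 against BAZ1B WT means of 11.5 and 0.0287 CPM (adjusted p = 9.6e-05). RUNX2, a runt transcription factor, stood at 0.172 and 0.134 CPM at D0 and 1.46 and 0.0965 CPM at D6 against 18.04 and 0.689 CPM (adjusted p = 0.000477). IGFBP4, which binds insulin-like growth factors, GPR85, an orphan receptor, and AL034397.3 stood at no more than 1.59 CPM in any of the 4 libraries, with BAZ1B WT D0 means of 10.7, 18.3 and 7.29 CPM. With so few reads these differences depend on the prior count of the fit and give no size.

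Against the KO cells of the same experiment, the day change differed for 177 of 13236 genes (1.34%), with 40 more positive (0.302%) and 137 more negative (1.04%) in KO. With the pairing 552 differed (4.17%), 211 more positive (1.59%) and 341 more negative (2.58%), and with correction for length and GC 243 (1.84%), 77 (0.582%) and 166 (1.25%). Without the pairing the count ranged from 6 (without the second WT D0 library) to 851 (without the third KO D6 library) when single libraries were left out. AQP1 had a steeper rise in KO, from 0.630, 1.67 and 2.35 to 236, 302 and 363 CPM (difference 4.86 ± 0.51, adjusted p = 0.00374), although it also rose in WT. PITX1, a homeobox factor, stood at 2.41 and 2.68 CPM at D0 and 7.17 and 8.78 CPM at D6 in WT and at 0 CPM in each D0 library and 11.5, 17.2 and 38.2 CPM in KO (adjusted p = 0.0113). SLC30A1, a zinc exporter, stood at 8.10 and 7.90 CPM at D0 and 35.02 and 42.2 CPM at D6 in WT and at 1.86, 2.47 and 2.60 and 62.7, 151 and 264 CPM in KO (adjusted p = 0.0285). In all 3 genes the WT D0 levels lay above those of every KO D0 library. In BAZ1B WT the means rose from 1.53 to 164 CPM for AQP1, 1.06 to 36.5 CPM for PITX1 and 0.761 to 72.6 CPM for SLC30A1. HUNK, a protein kinase, stood at 2.47 and 2.41 CPM at D0 and 0.317 and 1.06 CPM at D6 in WT and at means of 1.44 and 11.5 CPM in KO (difference 4.85 ± 0.80, adjusted p = 0.0215). The genes with the most negative difference fell in KO and were not called lower in WT. CST7 stood at 5.43, 5.70 and 8.29 CPM at D0 and 0.0530, 0.0542 and 0.169 CPM at D6 in KO (adjusted p = 0.00136), and ANXA1 at 11.8, 19 and 27.97 and 0.318, 0.922 and 1.07 CPM (adjusted p = 0.00224), so that both moved in opposite directions in WT and KO of this experiment. Both also fell in BAZ1B WT, CST7 from a mean of 23.4 to 2.97 CPM (adjusted p = 2.79e-07) and ANXA1 from 29 to 12.4 CPM (adjusted p = 0.00589). The opposite direction thus set the 4 WT libraries apart from another WT set too. SIGLEC6, a sialic acid receptor, stood at 1.72 and 1.21 CPM at D0 and 8.18 and 3.96 CPM at D6 in WT and at 29.7, 47.98 and 126 and 0.813, 0.955 and 2.65 CPM in KO (adjusted p = 0.00887). In BAZ1B WT SIGLEC6 fell as well, from a mean of 46.7 to 2.89 CPM. The pseudogene SIGLEC17P had under 1 CPM in each WT library and KO means of 9.98 and 0.0357 CPM (adjusted p = 0.0488).

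Of the 15 lists, differences from KO passed for few members: 1 heme enzyme (ALAD), 1 membrane gene (TMOD1), 2 late erythroid genes (AQP1 and E2F2) and 1 erythroid transcription or EPO gene (KLF3), named after their values were seen except AQP1, were more positive in KO, and with the pairing 5 of 8, 10 of 20, 10 of 27 and 3 of 17. With the pairing 7 of 16 iron genes and 3 of 19 DNA replication genes were also more positive in KO, against 0 and 0 without it, as was 1 member each of the G1, ribosome biogenesis, glucocorticoid and ATF4 lists. GATA2 and CD44 of the early progenitor list and ANXA1 of the glucocorticoid list passed too. For the globins the count was 0 of 10, and 4 with the pairing. Over all genes 0.302% were more positive in KO, and 1.59% with the pairing. As KO minus WT, the day change of GATA2, chosen after its values were seen, differed by -3.40 ± 0.43 (adjusted p = 0.00751). Its KO levels were 215, 229 and 229.9 CPM at D0 and 15.9, 21.3 and 33.3 CPM at D6. That of CD44 differed by 1.12 ± 0.19 (adjusted p = 0.0216), and CD44 stood at 125, 128 and 142 and 128, 143 and 149 CPM in KO.

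**Figure D5:**
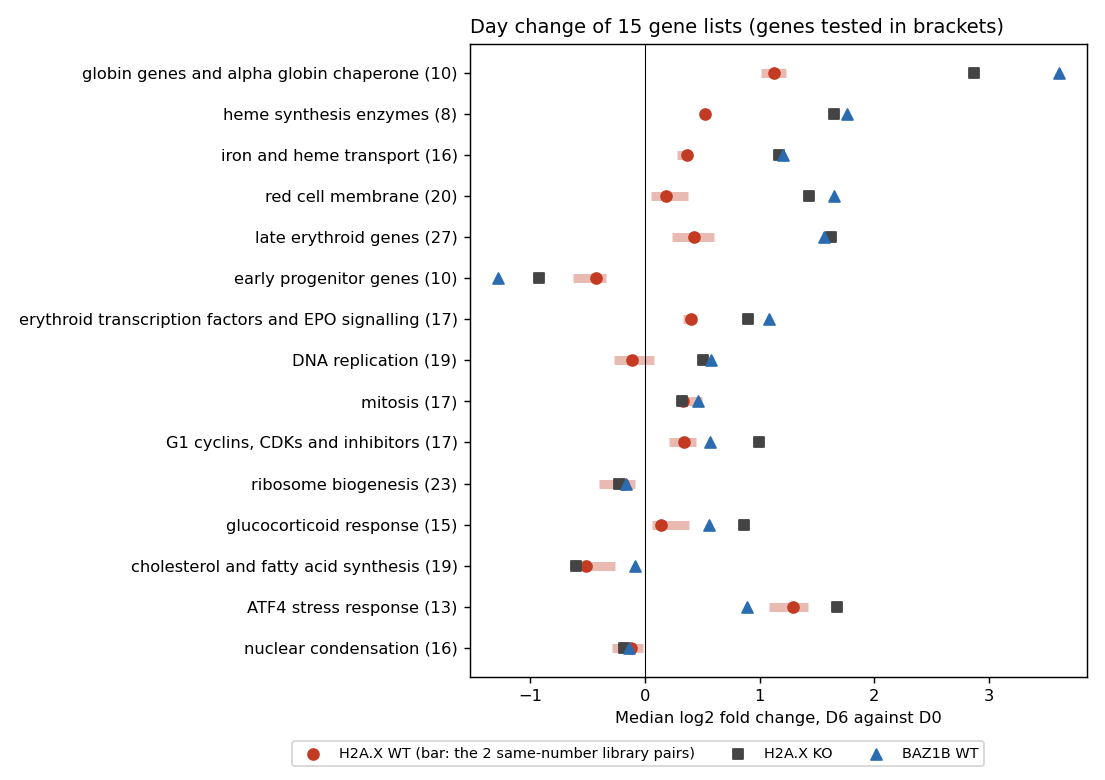
Median log2 fold change from D0 to D6 of the tested members of 15 gene lists in H2A.X-experiment WT (red circles, with a bar between the medians of both same-numbered pairs), H2A.X KO (squares) and BAZ1B WT (triangles). For the globin, heme, iron and membrane lists the red circles lie at 1.13, 0.52, 0.36 and 0.19, to the left of both other groups.

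Markers of other blood cells were measured beside these results. Of 9 mast cell, basophil and eosinophil markers, 5 passed the filter and 4 were at 0 in the WT libraries of each day, and their summed level was 103.5 to 137.4 CPM at D0 and 137.1 to 226 CPM at D6. In KO the sum was 214.4 to 422.5 CPM at D0 and 3.09 to 13.8 CPM at D6, and in BAZ1B WT 467.6 to 509.1 and 30 to 40.8 CPM. TPSAB1, a tryptase of mast cells, named with TPSB2 after its values were seen, stood at 32.9 and 39.3 CPM at D0 and 77.5 and 40.2 CPM at D6 in WT. Its day change in KO minus that in WT was -6.20 ± 0.81 (adjusted p = 0.00782). The day change in WT minus that in BAZ1B WT was 4.50 ± 0.33 (adjusted p = 9.41e-06). TPSB2, a tryptase nearly identical to TPSAB1, stood at 70.04 and 97.1 CPM at D0 and 148 and 96.5 CPM at D6 in WT, and reads may be split arbitrarily between the 2 genes. These 2 genes made up nearly all of the marker sum in each WT library, so that sum says little about the other markers of the list. CST7, SIGLEC6 and ANXA1 fell in KO and in BAZ1B WT as the marker sum did, and the part of such cells in the results was not tested. In bulk RNA fewer cells of a type and less RNA per cell cannot be told apart. Megakaryocyte markers summed to 11.1 to 15.7 CPM over both days, with 6 of 9 at 0. Myeloid markers summed to under 0.5 CPM and lymphoid markers to at most 0.508 CPM.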

How the data were processed

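RNA-Seq libraries of HUDEP-2 WT cells at D0 and D6 (2 a day) were analysed with 6 H2A.X KO and 6 BAZ1B WT libraries. The BAZ1B KO libraries entered the scaling and the fit of the BAZ1B experiment. The authors deposited raw read counts per gene symbol, with no normalization, after trimming with fastp and alignment to hg38 with STAR 2.7.0f. The submitters' processing notes also name Subread 1.6.4, featureCounts and DESeq2 1.22.1. The kit and read length differ between the labels and the study's methods, so strandedness is uncertain, and reads of overlapping and antisense genes may be mixed. Nothing used here gives the day or batch of library making.

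Samples were grouped by their labels. The deposited table has 59087 rows. Genes were filtered with filterByExpr (minimum count 10, minimum total 15), scaled by trimmed means and tested with edgeR 4.0.16 (quasi-likelihood test, R 4.3.3), with Benjamini-Hochberg adjustment over all genes tested at 0.05. The day change in WT and its difference from KO were fitted on all 10 H2A.X libraries (biological coefficient of variation 0.239), and comparisons with BAZ1B WT on the WT libraries of both experiments. The day change within BAZ1B WT, its calls and the genes of the score came from a fit of all BAZ1B libraries, WT and KO (biological coefficient of variation 0.0865). Same-numbered libraries deviated together in the H2A.X experiment (correlations 0.59 in WT and 0.296 to 0.57 in KO), and less so in BAZ1B WT (-0.0172 to 0.235). With 2 WT libraries a day both numbers give the same correlation, so 0.59 is 1 observation. The labels do not say that a number links the days, and the replicate block assumes it. Values with the block are given for some of the genes and lists whose call it changed, not for all of them. P-values measure the spread between these libraries, which may be partly technical. Alternatives used DESeq2 1.42.0, limma 3.58.1 (voom), upper-quartile scaling, no filter, omission of globin genes, and omission of single libraries. A correction for transcript length and GC content (loess, span 0.5, lengths for 11791 of 13236 genes) was added after the data were seen. Tests were checked on simulated data.

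The libraries and gene lists were chosen with earlier results of these data known. List examples are the called members with the smallest adjusted p or, with none called, those with the highest mean. Other named genes are the 10 called genes with the largest change each way from D0 to D6 (days not overlapping, mean normalized count of at least 50) and the 5 with the largest difference each way from KO and from BAZ1B WT. Genes outside these rules are marked as such. PER1 was not analysed here. A few list members that the naming rule or the text would have named are not reported here.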

Additional observations from a re-analysis of the deposited data

Results flagged for a closer look

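The day change differed between the WT cells and a comparison group, by a test of the difference itself (edgeR quasi-likelihood test), for 177 genes against KO and for 3257 genes against BAZ1B WT. The 10 genes named from each comparison are given here as log2 differences.

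In KO minus WT, the differences were 9.91 for PITX1, 4.93 for AC026403.1, 4.86 for AQP1, 4.85 for HUNK and 3.8 for SLC30A1, and -10.7 for MYO1F, -9.89 for CST7, -8.63 for SIGLEC17P, -8.34 for ANXA1 and -7.61 for SIGLEC6. The PITX1 and MYO1F values depend on the prior count, since PITX1 had 0 reads in every KO D0 library and MYO1F 0 reads in every KO D6 library, and SIGLEC17P rests on few reads in WT.

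In WT minus BAZ1B WT, the differences were 9.6 for AL034397.3, 8.88 for IGFBP4, 8.62 for MYO1F, 7.22 for RUNX2 and 7.16 for GPR85, and -8.38 for SMOX, -6.59 for LRP1, -5.95 for SMAD6, -5.78 for TRIM10 and -5.77 for ANKH. SMOX had 0 reads in BAZ1B WT at D0, and the values of AL034397.3, IGFBP4, MYO1F, RUNX2, GPR85 and SMAD6 rest on few reads in the WT libraries, so none of these 7 gives a size. Experiment and library making cannot be told apart from the cells in this comparison.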

How the results depend on the processing

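No named gene changed sign under the alternatives run, and of the list medians DNA replication did, from -0.114 to 0.025 without the second WT D6 library. The larger side of the calls changed from lower to higher for D6 minus D0 with the replicate block (583 and 544) and with the WT libraries alone (256 higher and 247 lower), for KO minus WT without the third KO D6 library (479 and 372), for WT minus BAZ1B WT with the correction for length and GC (2117 and 1756), and for the D0 comparison as given at the end. For D6 minus D0 in WT, the main count of 265 became 1067 with DESeq2, 1271 with no filter on low counts, 1127 with the replicate block, 503 with the WT libraries alone, 969 with the block and a correction for length and GC, and 0 at a stricter threshold (0.001 for the adjusted p, with a log2 change of over 1.5 in size; 2796 genes had an unadjusted p below 0.05). Leaving out 1 library gave 1 to 184. For KO minus WT, the main count of 177 became 680 with DESeq2, 1007 with no filter, 552 with the block and 535 with the block and the correction, and 6 to 851 without 1 library (6 without the second WT D0 library, 8 without the first, 851 without the third KO D6 library). For WT minus BAZ1B WT, 3257 became 1599 with voom, 4712 with the replicate block, and 2326 to 4888 without 1 library (4888 without the second WT D0 library). The D0 comparison with BAZ1B WT gave 8034 to 9379 calls without 1 library, against 9219, and upper-quartile scaling gave 5443 higher and 4001 lower. The causes were not tested. Of single-gene values, 233 kept their side of the threshold and 91 lost it in D6 minus D0, 83 and 27 in KO minus WT, and 105 and 5 in WT minus BAZ1B WT. Groups of 2 libraries and few reads in low genes limit these comparisons.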
